A study of Homo sapiens with 4 samples.

Results

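The 32 genes described here encode the machinery of mitosis: G2/M cyclins and their kinase, mitotic kinases, kinesins, kinetochore proteins and proteins of cytokinesis. They were chosen as a list of symbols, and all 32 were found among the 58302 Ensembl genes listed for each library, through their GENCODE 29 symbols. Polyadenylated RNA was profiled by RNA-seq in 4 libraries of T24, a bladder carcinoma line that is long established in culture. The knockout group came from T24 cells in which CRISPR/Cas9 had removed the RNA-binding protein IGF2BP3 (2 libraries), and the control group came from T24 cells with no further agent named (2 libraries). The series text speaks of a stable knockout line, and the labels do not say whether it was 1 clone, whether the controls carried Cas9, or whether each library stands for its own culture. The p-values therefore rest on differences between these libraries only, which may be technical. Each SE and p-value from limma reflects the variance typical of genes at a similar abundance, and not how far that gene's own libraries lay apart. UBE2C, with log2 gaps of 3.37 between the knockouts and 8.02 between the controls, was given an SE of 1.55. KIF11, with gaps of 0.37 and 0.019, was given an SE of 1.12.

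Entry into mitosis is driven by cyclin B bound to CDK1, which CDC25 phosphatases switch on. Aurora, Polo and checkpoint kinases then guide the attachment of chromosomes to a spindle built by kinesins and microtubule-binding proteins. Anaphase starts when CDC20 turns on the anaphase-promoting complex, which marks cyclins for destruction. Transcripts of many of these genes rise together late in the cell cycle, through a promoter element called CHR and through CCAAT boxes, so that their level in a mixed culture follows the share of cells in G2 and M. In bulk RNA, fewer cells of a phase and less RNA per cell cannot be told apart.

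RefSeq promoters (GRCh38.p14, the same assembly as the hg38 of the deposited tables) were at hand for 27 of the 32 genes, with none for AURKA, BIRC5, TPX2, TTK and UBE2C. The sequences of 5 are shown, because they hold at least 2 matches to the shared elements in a stretch with few or no bases of annotated exons. Those bases number 26 of 120 for CDC20 and 0 for each of the others. The 5 belong to genes whose levels ran differently over the libraries. Each is the stretch of 120 bases just before the start, 5′ to 3′ on the strand of the gene, with CHR letters (TTTGAA or TTCGAA, or TTCAAA on the other strand) and CCAAT letters (CCAAT, or ATTGG on the other strand) in capitals.
KIF11 (chr10:92593010-92593129, plus strand): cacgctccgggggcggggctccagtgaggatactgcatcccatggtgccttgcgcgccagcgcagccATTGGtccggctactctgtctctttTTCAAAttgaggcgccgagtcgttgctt
CDC20 (chr1:43358861-43358980, plus strand): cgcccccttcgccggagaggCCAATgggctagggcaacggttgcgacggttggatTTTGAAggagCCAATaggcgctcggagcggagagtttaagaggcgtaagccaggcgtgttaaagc
MKI67 (chr10:128126424-128126543, minus strand): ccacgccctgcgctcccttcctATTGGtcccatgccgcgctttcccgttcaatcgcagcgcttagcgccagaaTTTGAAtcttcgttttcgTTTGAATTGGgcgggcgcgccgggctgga
CENPF (chr1:214603075-214603194, plus strand): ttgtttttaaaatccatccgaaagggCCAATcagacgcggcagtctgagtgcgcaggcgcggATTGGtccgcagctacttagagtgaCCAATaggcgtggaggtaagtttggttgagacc
CDC25A (chr3:48188418-48188537, minus strand): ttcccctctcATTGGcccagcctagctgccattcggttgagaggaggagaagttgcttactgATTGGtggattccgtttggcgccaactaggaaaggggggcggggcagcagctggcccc

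In MKI67 the CHR letters nearest the start and the ATTGG after them share a base. Over the 250 bases before each start, CHR letters on either strand were found in 16 of 35 member promoters (45.7%), some genes having several starts, and in 14.3% of all 35116 promoters in the table. CCAAT letters were found in 25 (71.4%) and in 32.01% of all promoters. Both were present in 14 (40.0%), against 5.05% of all promoters. By gene, 15 of 27 had CHR letters before at least 1 start, 21 had CCAAT letters, 13 had both and 4 had neither. A match is a description of letters and does not show that a factor binds there.

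**Figure D1:**
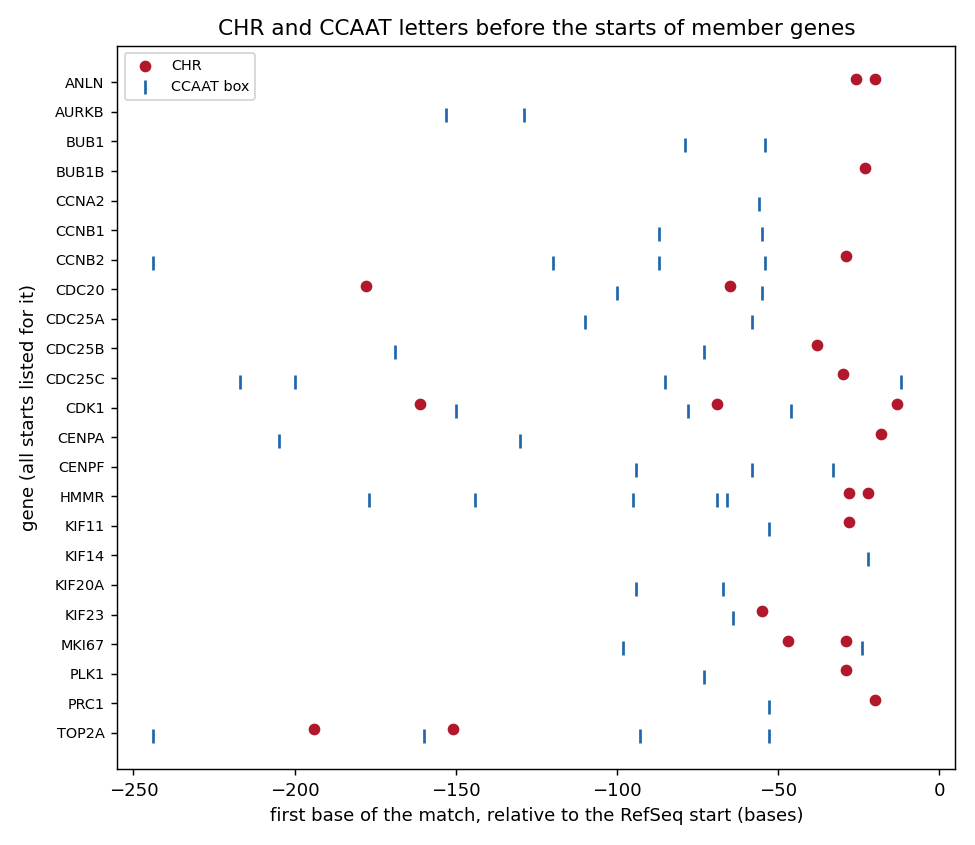
Positions of CHR letters (red circles) and CCAAT letters (blue bars) on either strand in the 250 bases before the RefSeq starts of member genes, in bases relative to the start, with all listed starts of a gene on its line. Most CHR letters lie close to the start, with CCAAT letters mostly further upstream, and KIF2C, NUF2, CENPE and NDC80 have neither and are not drawn.

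The libraries were shallow. Whole reads recovered from the deposited values gave 811823 and 1240207 gene-assigned reads for knockout 1 and 2, and 2162179 and 1870884 for control 1 and 2. Reads could be recovered for 30 of the 32 genes (not KIF23 and CDC25C), and the median of these had 122 and 176 reads in the knockouts, against 242 and 223 in the controls. IGF2BP3 itself, the targeted gene, had 0 and 0.1897 FPKM in knockout 1 and 2, against 2.94 and 21.5 FPKM in control 1 and 2, in the direction of the labels. The fit did not call it (−3.89 ± 2.83, SE, on the log2 scale, adjusted p = 0.955 in limma). KRT8, KRT18 and VIM, fixed as markers of a carcinoma line, were above 0 in all 4 libraries, and KRT7 was listed at 0 in control 1. These 4 markers summed to 1766 and 1535 FPKM in the knockouts, against 617 and 746 in the controls, and the part of that shift in the results below was not tested. All 4 leukocyte markers were listed at 0 everywhere, as were 2 of 3 fibroblast and 2 of 3 endothelial markers. COL1A1 had 6.59 FPKM in knockout 2 and 14.9 in control 1, and CDH5 had 2.72 in control 2. Of 10 genes that every cell uses, TBP and HPRT1 were listed at 0 in knockout 1, so a value of 0 in a single library is not evidence that a gene is silent.

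As a sum, mitotic transcripts had nearly the same level in all 4 libraries. The 32 genes summed to 1731 and 1705 FPKM in knockout 1 and 2, against 1734 and 1743 FPKM in control 1 and 2, and the highest sum was 1.02 times the lowest. Group means were 1718 ± 18.7 FPKM in the knockouts and 1738 ± 6.203 FPKM in the controls (SD, n = 2 each), a ratio of 0.988. The sum was 0.478% and 0.476% of all FPKM in knockout 1 and 2, against 0.485% and 0.477% in control 1 and 2. In reads, the 30 genes took 0.644% (exact 95% interval 0.627 to 0.662%, counting error only) and 0.676% (0.661 to 0.6903%) of the knockout libraries, against 0.684% (0.673 to 0.695%) and 0.684% (0.673 to 0.696%) of the control libraries. By that measure knockout 1 lay lowest. The measure leaves out KIF23, with 59.4 and 22.4 FPKM in knockout 1 and 2, against 2.99 and 33.7 FPKM in control 1 and 2. After whole reads were thinned to equal depth, or values were quantile normalized, the log2 ratio of knockout over control sums was −0.048 and −0.085, against −0.017 as deposited. The sum is weighted to abundant genes: the 6 of highest mean made up 44.3 to 54.8% of it.

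**Figure D2:**
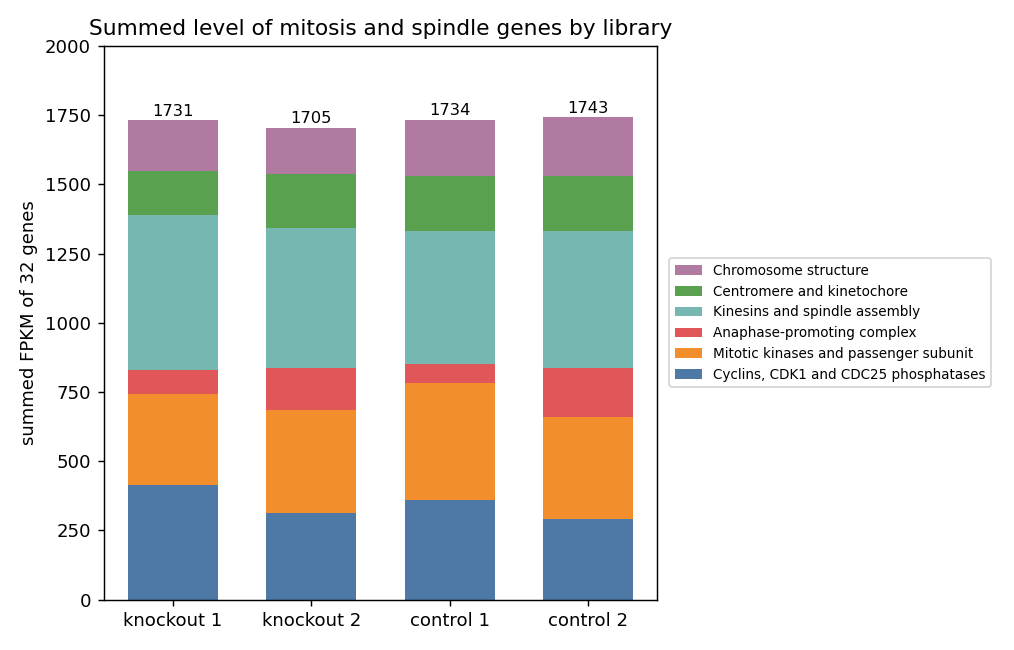
Summed FPKM of the 32 genes in knockout 1, knockout 2, control 1 and control 2, stacked by role, with the total above each bar. Totals lie between 1705 and 1743 FPKM, while the anaphase-promoting complex block (CDC20 and UBE2C) varies most in proportion, with its highest sum 2.52 times its lowest.

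No single gene of the group was called. CDC25C had a mean under 1 FPKM and was not tested, and of the other 31, 0 passed an adjusted p of 0.05 in limma in the higher direction (beside 0.0611% of all genes) and 0 in the lower (beside 0.0262%), or beside 0.0872% in either direction of all 11463 genes tested. At an unadjusted p under 0.05 the count was also 0, beside 3.91% of all genes. With limma-voom on recovered reads, 0 of 30 were called, beside 9 of all 11046 genes in that fit. There 0 had an unadjusted p under 0.05, beside 2.73% of all genes. Of the 31, 17 had a positive and 14 a negative log2 fold change, with a median of 0.25, beside −0.082 over all genes tested. With 1 library left out, that median was −0.14 (all genes −0.35) without control 1, −0.043 (all genes 0.34) without control 2, 0.074 (all genes 0.16) without knockout 1 and 0.48 (all genes −0.56) without knockout 2. The intervals were wide, from 1.14 either side for TPX2 to 4.99 for TTK. They are not adjusted over all genes, so changes of that size, and some larger ones, would not have been called here.

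**Figure D3:**
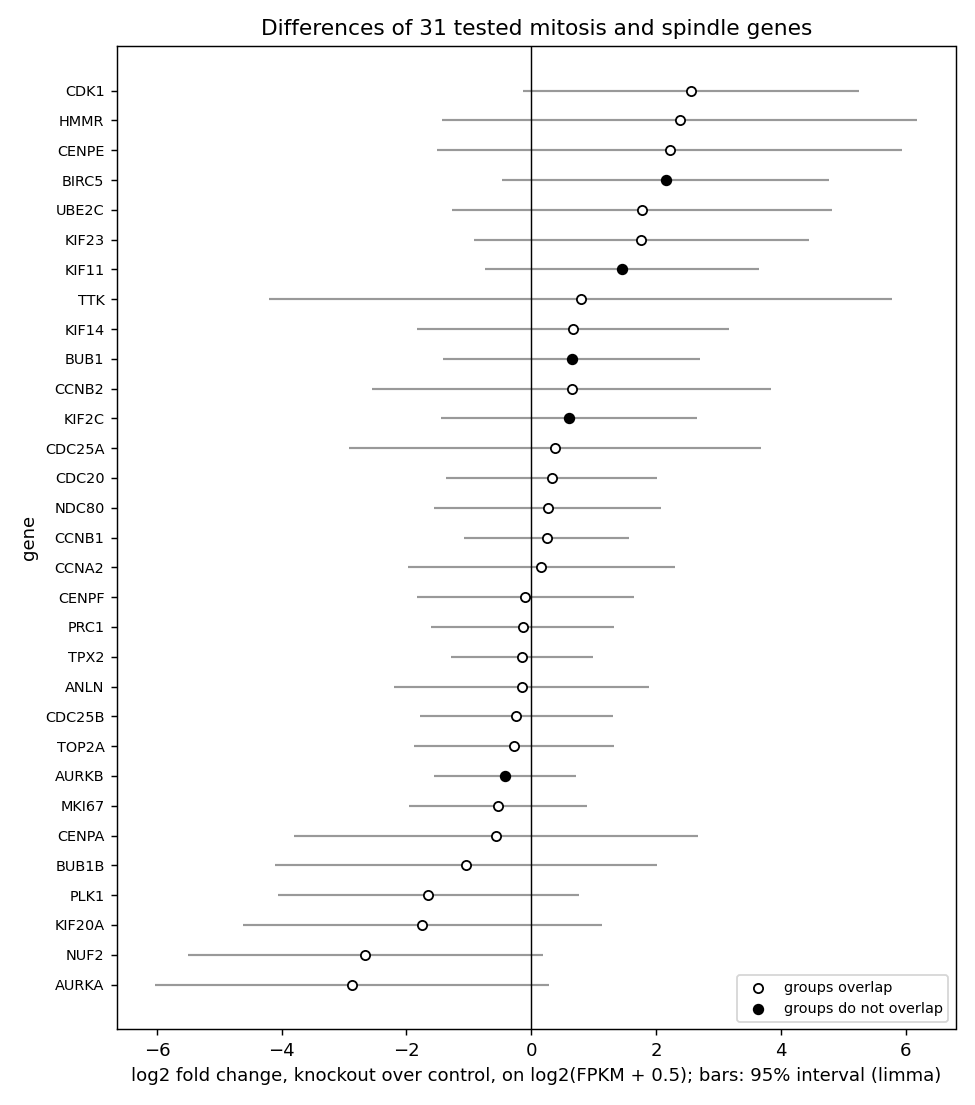
Log2 fold change of knockout over control for 31 genes, on the log2(FPKM + 0.5) scale, with 95% intervals from limma, where filled points mark genes whose 2 knockout values lie all above or all below the 2 control values. Every interval includes 0, and genes run on this scale from CDK1 at the top to AURKA at the bottom.

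Cyclins, CDK1 and CDC25 phosphatases summed to 416 and 312 FPKM in knockout 1 and 2, against 359 and 292 FPKM in control 1 and 2, with overlapping groups. Of the cyclins, CCNB1, the main mitotic cyclin, was abundant in every library. It had 189.7 and 100.4 FPKM in knockout 1 and 2, against 142 and 95.1 FPKM in control 1 and 2, which stand for 334 and 270 reads in the knockouts, against 667 and 386 in the controls. The groups overlapped, with a log2 fold change of 0.25 ± 0.68 (SE, 95% interval −1.08 to 1.57). CCNB2, the other B-type cyclin of somatic cells, had 24.1 and 10.6 FPKM in knockout 1 and 2, against 4.99 and 19.9 FPKM in control 1 and 2, lowest in control 1. CCNA2, the cyclin of S phase and G2, had 86.3 and 15.6 FPKM in knockout 1 and 2, against 119.7 and 8.79 FPKM in control 1 and 2. Its values were high in the library numbered 1 of each group and low in the library numbered 2, so the gap between libraries of 1 group was far larger than the fitted log2 difference of 0.16, which was −0.27 with limma-voom.

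CDK1, the kinase that these cyclins activate (chromosome 10, 60778331 to 60794852, plus strand, hg38), was low in control 1. It had 25.9 and 89.4 FPKM in knockout 1 and 2, against 0.9497 and 46.6 FPKM in control 1 and 2, or 41 and 216 reads in the knockouts, against 4 and 170 in the controls. Control 2 lay between the knockouts, so the groups overlapped, and the log2 fold change of 2.56 ± 1.37 (SE, adjusted p = 0.955 in limma) was 0.048 without control 1. CCNB1 transcript per CDK1 transcript, as a ratio of FPKM, was 7.32 and 1.12 in knockout 1 and 2, against 149.8 and 2.04 in control 1 and 2.

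The CDC25 phosphatases, which remove inhibitory phosphates from CDKs, differed in level. CDC25B was high and even, at 64.7 and 88.1 in the knockouts, against 86.7 and 91.7 in the controls (FPKM), with a log2 fold change of −0.24 ± 0.79 (SE), which was −0.017 without knockout 1 and −0.46 without knockout 2. CDC25A had 24.4 and 7.46 FPKM in knockout 1 and 2, against 3.301 and 30.2 FPKM in control 1 and 2, with control 2 and knockout 1 high and the other two low. CDC25C was near the limit of detection, listed at 0.579 and 0.758 FPKM in the knockouts, against 1.09 and 0 in the controls.

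The mitotic kinases with BIRC5 summed to 325 and 371 FPKM in knockout 1 and 2, against 423 and 369 FPKM in control 1 and 2. Among them AURKB, the catalytic subunit of the chromosomal passenger complex (chromosome 17, 8204733 to 8210600, minus strand), had the highest mean FPKM of the 32. It had 191 and 149 FPKM in knockout 1 and 2, against 266 and 192 FPKM in control 1 and 2, and was the 1 gene of the group with both knockouts below both controls. The log2 fold change of −0.42 ± 0.58 (SE, adjusted p = 0.955 in limma) was smaller than the gap of 0.47 between the controls, and came to −0.19 without control 1 and −0.66 without control 2. BIRC5, which encodes survivin, a subunit of the same complex, pointed the other way at 43.2 and 45.8 FPKM in knockout 1 and 2, against 3.41 and 25.6 FPKM in control 1 and 2. Its knockouts lay above both controls and close to each other, and the log2 fold change of 2.15 ± 1.34 (SE, adjusted p = 0.955 in limma) was 0.78 without control 1. BIRC5 per AURKB, as a ratio of FPKM, was 0.227 and 0.307 in knockout 1 and 2, against 0.0128 and 0.133 in control 1 and 2.

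AURKA, the Aurora kinase of centrosomes and spindle poles (chromosome 20, 56369389 to 56392337, minus strand), had 0 and 50.6 FPKM in knockout 1 and 2, against 33.1 and 39.9 FPKM in control 1 and 2. No read was assigned to it in knockout 1, where 3 reads would be 1.64 FPKM, while knockout 2 held the highest value of all. The fitted log2 fold change of −2.87 ± 1.61 (SE, adjusted p = 0.955 in limma) turned to 0.47 without knockout 1. TPX2, the protein that activates AURKA on spindle microtubules, had the smallest range of the 31 tested. It had 175 and 202 FPKM in knockout 1 and 2, against 218 and 198 FPKM in control 1 and 2, a log2 fold change of −0.14 ± 0.58 (SE, 95% interval −1.28 to 0.99), with a range of 0.31 on the log2 scale over all 4 libraries.

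PLK1, the Polo kinase of mitotic entry and cytokinesis, had 4.77 and 40.8 FPKM in knockout 1 and 2, against 65.1 and 32.1 FPKM in control 1 and 2. Knockout 1 stood far below the rest, with 16 reads against 209 in knockout 2, and 582 and 248 in the controls, and the log2 fold change of −1.65 ± 1.23 (SE) was −0.16 without that library. Of the spindle checkpoint kinases, BUB1 was even, at 55.8 and 42.2 in the knockouts, against 28.2 and 33.6 in the controls (FPKM), with both knockouts above both controls and a log2 fold change of 0.65 ± 1.05 (SE, adjusted p = 0.960 in limma). BUB1B, which encodes the checkpoint protein BubR1, had 1.98 and 41.99 FPKM in knockout 1 and 2, against 9.31 and 45.2 FPKM in control 1 and 2, low in the library numbered 1 of each group. TTK, the checkpoint kinase also called MPS1, had 29.1 and 0.649 FPKM in knockout 1 and 2, against 17.1 and 0.143 FPKM in control 1 and 2, the opposite pattern, from 88 and 3 reads in the knockouts, against 138 and 1 in the controls.

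CDC20 and UBE2C, which work on the same ligase, summed to 88.5 and 154 FPKM in knockout 1 and 2, against 70.01 and 177 FPKM in control 1 and 2, lowest in knockout 1 and control 1. CDC20, the activator of the anaphase-promoting complex, had 80.4 and 65.3 FPKM in knockout 1 and 2, against 70.01 and 47.5 FPKM in control 1 and 2, with overlapping groups and a log2 fold change of 0.33 ± 0.86 (SE), which was 0.60 without control 1 and 0.05 without control 2. UBE2C, its ubiquitin-conjugating enzyme, had 8.09 and 88.2 FPKM in knockout 1 and 2, against 0 and 129 FPKM in control 1 and 2. In control 1 it had 0 reads, where 3 reads would be 1.52 FPKM, and 221 in control 2, so that its fitted log2 fold change of 1.78 ± 1.55 (SE) became −2.23 without control 1 and 5.79 without control 2. UBE2C per CDC20 in FPKM was 0.101 and 1.35 in knockout 1 and 2, against 0 and 2.72 in control 1 and 2.

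**Figure D4:**
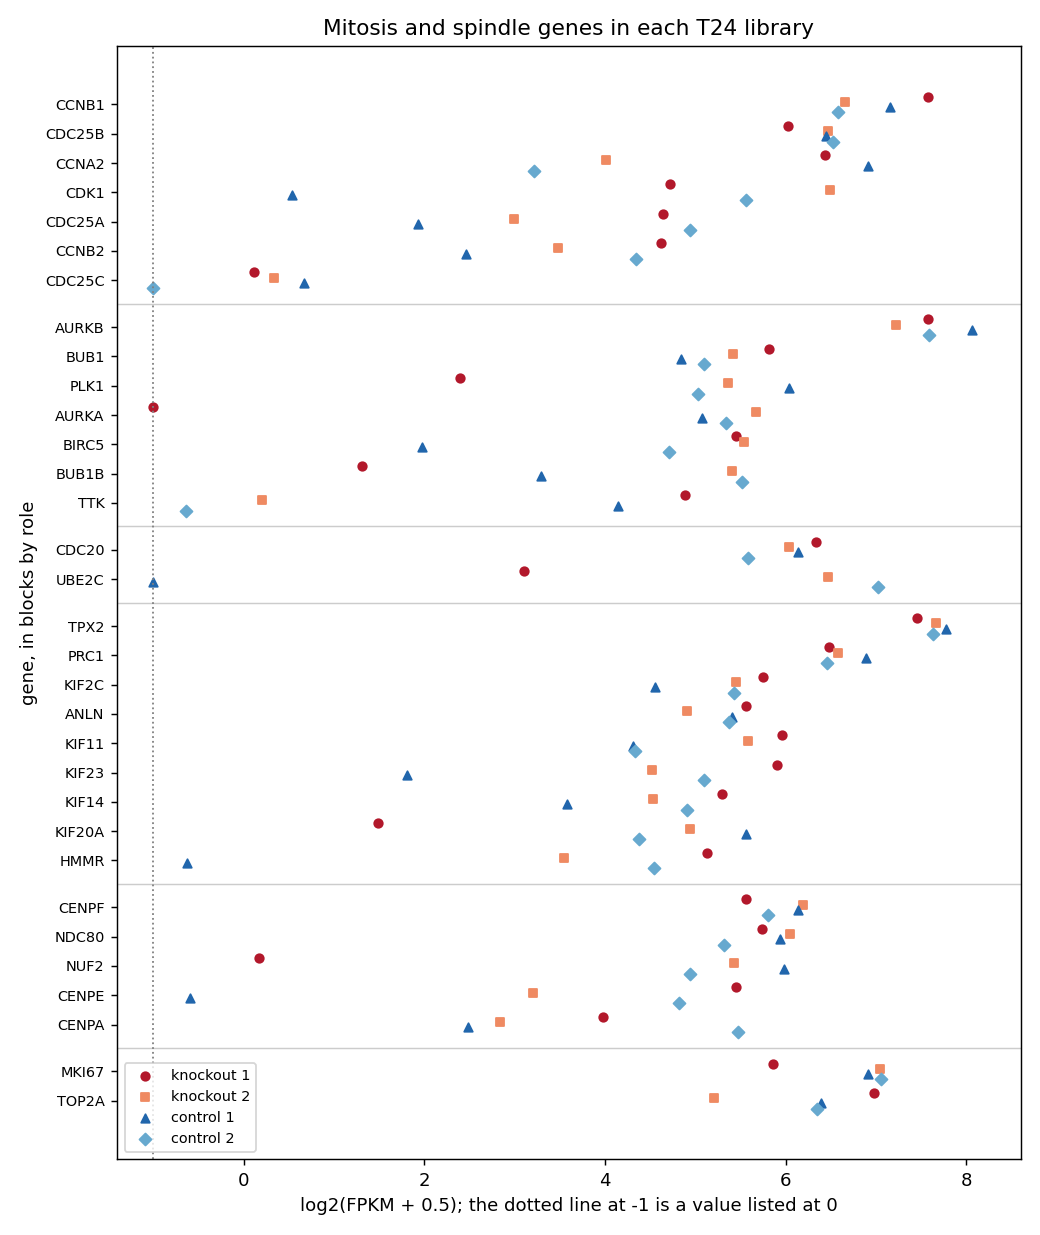
Level of each of the 32 genes as log2(FPKM + 0.5) in knockout 1 (circles), knockout 2 (squares), control 1 (triangles) and control 2 (diamonds), in blocks by role, with the dotted line for a value listed at 0. TPX2, PRC1, CDC25B, CENPF and NDC80 keep their 4 points together. AURKA, UBE2C, NUF2, HMMR, CENPE, TTK and CDC25C each have a point at or near the dotted line.

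Kinesins and spindle assembly genes summed to 560.2 and 504 FPKM in knockout 1 and 2, against 481 and 495 FPKM in control 1 and 2. Of the spindle motors, KIF11 had the largest difference among those whose groups did not overlap. KIF11 encodes Eg5, the kinesin that pushes spindle poles apart (chromosome 10, 92593286 to 92655395, plus strand; promoter shown above). It had 61.6 and 47.4 FPKM in knockout 1 and 2, against 19.3 and 19.6 FPKM in control 1 and 2, or 243 and 286 reads in the knockouts, against 203 and 178 in the controls. The controls were 0.019 apart and the knockouts 0.37 apart on the log2 scale, against a log2 fold change of 1.45 ± 1.12 (SE). With 1 library left out it lay between 1.27 and 1.64, a range that these gaps fix and that adds nothing to them. KIF11 did not pass over all genes (adjusted p = 0.955 in limma, unadjusted p = 0.196). KIF2C, a kinesin that takes microtubule ends apart, also had both knockouts above both controls, at 53.4 and 43.1 in the knockouts, against 23.01 and 42.5 in the controls (FPKM), with a log2 fold change of 0.61 ± 1.05 (SE, adjusted p = 0.968 in limma) that was 0.17 without control 1 and 1.04 without control 2.

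Motors of the central spindle varied more. KIF23, a subunit of centralspindlin, had 59.4 and 22.4 FPKM in knockout 1 and 2, against 2.99 and 33.7 FPKM in control 1 and 2, low in control 1 alone, and its log2 difference of 1.76 ± 1.37 (SE) came to 0.11 without that library. KIF20A, which brings the passenger complex to the central spindle, had 2.31 and 30.2 FPKM in knockout 1 and 2, against 46.5 and 20.2 FPKM in control 1 and 2, low in knockout 1 alone, and its log2 difference of −1.75 ± 1.47 (SE) came to −0.022 without that library. KIF14, a kinesin of cytokinesis, had 38.6 and 22.6 FPKM in knockout 1 and 2, against 11.4 and 29.5 FPKM in control 1 and 2, and its log2 fold change of 0.67 ± 1.28 (SE) was 0.00479 without control 1. PRC1, which bundles the antiparallel microtubules that these motors work on, was even by contrast, at 88.9 and 95.5 in the knockouts, against 118 and 87.4 in the controls (FPKM), with a log2 fold change of −0.14 ± 0.75 (SE). KIF23 per PRC1 in FPKM was 0.668 and 0.234 in knockout 1 and 2, against 0.0254 and 0.386 in control 1 and 2. ANLN, which encodes anillin of the contractile ring, was even as well, at 46.6 and 29.5 in the knockouts, against 41.7 and 40.98 in the controls (FPKM). HMMR, a spindle protein that is also a hyaluronan receptor, had 34.5 and 11.2 FPKM in knockout 1 and 2, against 0.149 and 22.7 FPKM in control 1 and 2, with 1 read in control 1 against 132 in control 2.

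Centromere and kinetochore genes summed to 159 and 196 FPKM in knockout 1 and 2, against 199 and 196 FPKM in control 1 and 2, lowest in knockout 1. NDC80 and NUF2 encode partners that form a dimer in the complex that grips microtubules. NDC80 had 52.7 and 65.7 FPKM in knockout 1 and 2, against 60.9 and 39.4 FPKM in control 1 and 2, an even level with a log2 fold change of 0.26 ± 0.93 (SE). NUF2 had 0.626 and 42.6 FPKM in knockout 1 and 2, against 62.5 and 30.1 FPKM in control 1 and 2, and in knockout 1 a single read stood behind its value. Their FPKM ratio, NUF2 over NDC80, was 0.0119 and 0.648 in knockout 1 and 2, against 1.03 and 0.765 in control 1 and 2. The log2 fold change of NUF2, −2.66 ± 1.45 (SE, adjusted p = 0.955 in limma), was −0.028 without knockout 1. CENPF, a large outer kinetochore protein, had 46.8 and 72.6 FPKM in knockout 1 and 2, against 69.96 and 55.4 FPKM in control 1 and 2, even, whereas CENPE, a kinetochore kinesin, had 43.3 and 8.71 FPKM in knockout 1 and 2, against 0.161 and 27.6 FPKM in control 1 and 2, with 3 reads in control 1 against 445 in control 2. CENPA, the histone H3 variant of centromeres, had 15.3 and 6.66 FPKM in knockout 1 and 2, against 5.096 and 43.8 FPKM in control 1 and 2, highest in control 2, from 18 and 12 reads in the knockouts, against 16 and 119 in the controls.

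MKI67 and TOP2A together came to 183 and 168 FPKM in knockout 1 and 2, against 203 and 214 FPKM in control 1 and 2. Both knockouts lay below both controls, though neither gene alone separated the groups. Sums of other roles also separated them, in mixed directions. The kinesin and spindle assembly sum had both knockouts above both controls. The centromere and kinetochore sum had both below, narrowly, at 196.27 in knockout 2 against 196.32 in control 2. Separation of such sums was not tested. MKI67, the proliferation antigen that coats mitotic chromosomes, had 57.4 and 132 FPKM in knockout 1 and 2, against 119.6 and 133 FPKM in control 1 and 2. Knockout 1 was low and the other 3 libraries were close together, and the log2 fold change of −0.53 ± 0.73 (SE) was 0.063 without knockout 1. TOP2A, the topoisomerase that untangles sister chromatids, had 125 and 36.5 FPKM in knockout 1 and 2, against 83.4 and 81.04 FPKM in control 1 and 2, high in knockout 1 and low in knockout 2 around controls that nearly coincided.

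Both knockouts lay above both controls for 4 of the 31 genes (BIRC5, BUB1, KIF11 and KIF2C), beside 12.1% of all genes tested, and below for 1 (AURKB), beside 14.4%. These shares are close to or below the background. For 2 of the 31, BUB1 and KIF11, the fitted difference was larger than the gap between libraries in either group (6.45%, beside 15.4% of all genes tested).

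How far a gene moved between libraries went with its level. Of the 31, the 16 of highest mean (39.7 to 199.6 FPKM) had a median range over the 4 libraries of 0.90 on the log2 scale, beside 1.71 for 1385 protein-coding genes of that range of means. The 15 lower ones (11.8 to 36.98 FPKM) had a median range of 4.07, beside 3.60 for 3204 protein-coding genes. All 4 values lay within a log2 range of 1 for 10 of the 16 (62.5%, beside 22.7% of the protein-coding genes of like mean) and for 0 of the 15. These 10 were ANLN, AURKB, BUB1, CCNB1, CDC20, CDC25B, CENPF, NDC80, PRC1 and TPX2. The libraries of a group differed by more than 1 on the log2 scale for 17 of 31 in the knockouts and for 16 in the controls.

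Some of the unsteady genes were low in particular libraries. In a count made after the values were seen, 5 genes stood more than 3 times below every other library in knockout 1 alone (AURKA, BUB1B, KIF20A, NUF2 and PLK1; 16.1%, beside 19.7% of all genes tested). In control 1 alone 6 did (BIRC5, CDK1, CENPE, HMMR, KIF23 and UBE2C; 19.4%, beside 14.8%), in control 2 alone 1 (TTK, beside 2.52%) and in knockout 2 0 (beside 3.72%). The rule looks at the lowest value only, and some of these genes were low in a further library. TTK had 3 reads in knockout 2, against 1 in control 2. BUB1B had 9.31 FPKM in control 1, and UBE2C had 8.09 FPKM in knockout 1. The shares were near those of all genes. Knockout 1 and control 1 also had the fewest genes above 0, 7827 and 8856, against 11127 in knockout 2 and 11433 in control 2, and the part of this in the low values was not tested. As a description over the 31 genes, which share libraries and gene lengths, Pearson's r of log2(FPKM + 0.5) came to 0.83 between knockout 2 and control 2, 0.17 between the knockouts and 0.24 between the controls. The other 3 pairings lay between 0.21 and 0.45. Spearman's rho over the same 31 came to 0.75 between knockout 2 and control 2, 0.44 between the knockouts and 0.46 between the controls. For the other pairings rho was 0.61 between knockout 1 and control 1, 0.54 between knockout 2 and control 1, and 0.42 between knockout 1 and control 2. Over all genes tested, Pearson's r lay between 0.42 and 0.49 for every pair, so the full table does not set knockout 2 and control 2 apart.

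**Figure D5:**
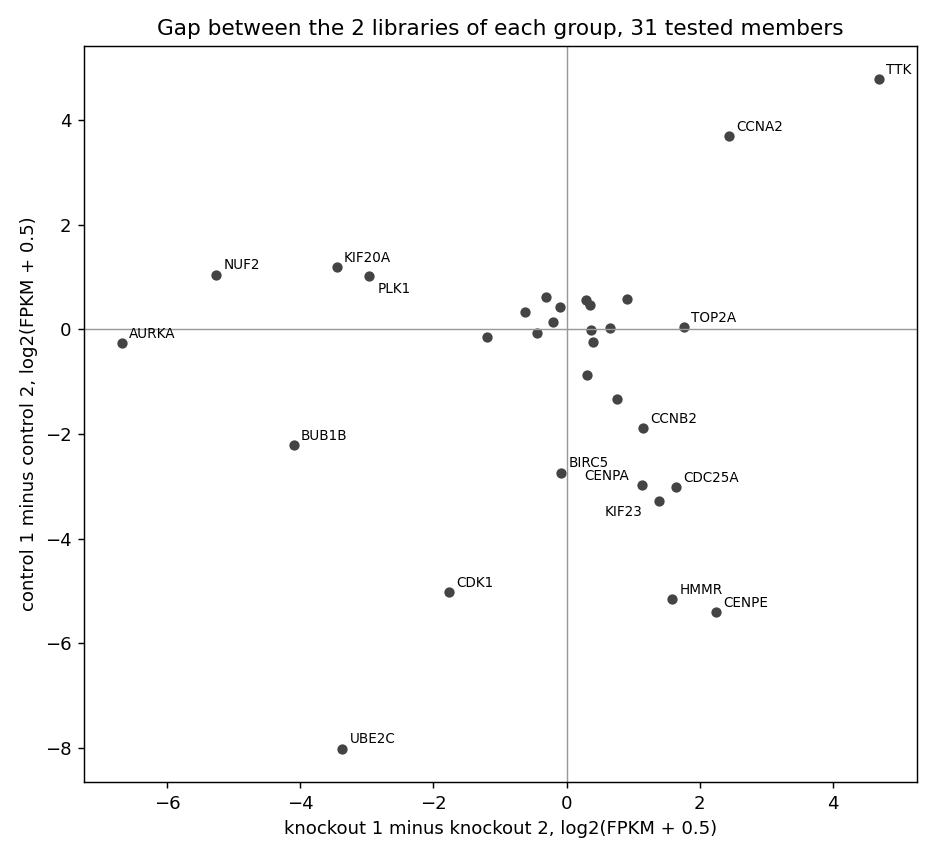
For each of 31 genes, the gap between knockout 1 and knockout 2 (x axis) and between control 1 and control 2 (y axis) in log2(FPKM + 0.5), with names where a gap exceeds 1.5. AURKA and NUF2 spread along the knockout axis, CENPE and HMMR along the control axis, and UBE2C and TTK along both, with a cluster of steady genes at the centre.

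Genes with and without CHR letters were both of mixed direction. Of 14 tested genes with CHR letters, 6 had a positive and 8 a negative log2 fold change, with a median of −0.15. Of 12 without, 8 were positive and 4 negative, with a median of 0.25. KIF11, with CHR and CCAAT letters, had both knockouts above both controls, and CDC20, with the same letters, had overlapping groups. None of these genes passed the test.

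Other genes of the mitotic machinery, in 7 lists of 133 genes with no member in common with the 32, gave 0 calls in limma among 127 tested, with 5 at an unadjusted p under 0.05 (3.94%, beside 3.91% of all genes). Limma-voom also called 0, with 3 of 126 at an unadjusted p under 0.05 (2.38%, beside 2.73% of all genes). Of the 127, 56 had a positive and 71 a negative log2 fold change (median −0.28), beside 5525 positive and 5938 negative of all genes tested. The groups did not overlap for 22 of the 127 with the knockouts above and for 23 with the knockouts below. Both are larger shares than the 12.1% and 14.4% of all genes, and this excess was not tested. Their sum was 5046 and 5671 FPKM in knockout 1 and 2, against 5586 and 5452 FPKM in control 1 and 2, the highest 1.12 times the lowest, and the sums of single lists spread more, with the highest 1.33 to 2.13 times the lowest.

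From each list the 2 genes of highest mean level are given. For subunits and regulators of the anaphase-promoting complex, 11 of 15 tested genes were positive and 4 negative (median log2 fold change 1.24). UBE2S, the enzyme that extends ubiquitin chains on its substrates, had 68.2 and 60.1 FPKM in knockout 1 and 2, against 171 and 86.8 FPKM in control 1 and 2, and ANAPC11, its RING subunit, had 5.19 and 37.4 in the knockouts, against 53.05 and 14.8 in the controls. The knockouts lay below the controls for UBE2S (log2 fold change −0.92 ± 0.77, SE, adjusted p = 0.955 in limma) and overlapped them for ANAPC11. For other kinetochore and checkpoint genes, 10 of 31 tested genes were positive and 21 negative (median log2 fold change −0.73). SPC24, a subunit of the same complex as NDC80 and NUF2, had 51.1 and 45.6 FPKM in knockout 1 and 2, against 126 and 91.4 FPKM in control 1 and 2, and MAD1L1, a checkpoint protein, had 52.3 and 56.6 in the knockouts, against 119.7 and 67.9 in the controls. Both knockouts were below both controls for each, without passing (log2 fold change −1.15 ± 0.83 and −0.72 ± 0.84, SE, adjusted p = 0.955 and 0.955 in limma).

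For partners and inhibitors of the mitotic kinases, 4 of 18 tested genes were positive and 14 negative (median log2 fold change −0.53). INCENP, the scaffold of the passenger complex that holds AURKB and BIRC5, had 128 and 167 FPKM in knockout 1 and 2, against 224 and 150.1 FPKM in control 1 and 2, and PKMYT1, an inhibitory kinase of CDK1, had 40.6 and 39.5 in the knockouts, against 76.1 and 21.8 in the controls. Neither separated the groups. For further spindle motors and microtubule-binding proteins, 10 of 18 tested genes were positive and 8 negative (median log2 fold change 0.23), with TACC3 at 122 and 158 in the knockouts, against 88.5 and 169.5 in the controls and NUMA1 at 58.9 and 126 in the knockouts, against 106 and 104 in the controls (FPKM). For condensin, cohesin and their regulators, 12 of 19 tested genes were positive and 7 negative (median log2 fold change 0.38). SMC4, a condensin subunit, had 159.6 and 71.5 FPKM in knockout 1 and 2, against 47.3 and 63.7 FPKM in control 1 and 2, with both knockouts above both controls (log2 fold change 0.95 ± 0.81, SE, adjusted p = 0.955 in limma), and NCAPD2 had 65.1 and 81.5 in the knockouts, against 109.7 and 68.7 in the controls, with overlap.

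For cytokinesis genes, 4 of 11 tested genes were positive and 7 negative (median log2 fold change −0.058). MYH9, a nonmuscle myosin, had the highest level of the 127, at 963 and 1229 in the knockouts, against 1309.7 and 979.7 in the controls (FPKM), and CHMP4B, of the complex that cuts the last bridge between daughter cells, had 48.6 and 349 FPKM in knockout 1 and 2, against 380.2 and 302 FPKM in control 1 and 2, low in knockout 1 alone. For regulators of G2/M transcription, 5 of 15 tested genes were positive and 10 negative (median log2 fold change −0.85). MYBL2, which encodes the B-MYB factor that acts through CHR-bound complexes, had 172 and 312 FPKM in knockout 1 and 2, against 252 and 344 FPKM in control 1 and 2, and TFDP1, a partner of E2F factors, had 65.6 and 65.2 in the knockouts, against 10.3 and 88.8 in the controls, low in control 1 alone. In both the groups overlapped.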

How the data were processed

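RNA-seq of polyA RNA from 2 knockout and 2 control T24 libraries was analysed. The authors deposited 1 FPKM value per gene and library (fragments per kilobase of transcript scaled to library reads), counted with HTSeq per the file names. Per the submitters' processing notes the build is hg38. Aligner, annotation release, strand setting and duplicate handling are not stated by the labels or headers. Per the file headers the columns are named input, and m6A immunoprecipitation was not analysed here.

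Multiplied by the longest transcript in GENCODE 29, FPKM were whole multiples of 1 read for 96.5 to 96.7% of genes above 0 (relative tolerance of 0.0001). That gave reads, depth and the worth of 3 reads, which bound counting error only. Names and positions came from GENCODE 29. Genes with a mean of at least 1 FPKM (11463) were fitted with limma 3.58.1 in R 4.3.3 (lmFit, eBayes with trend, two-sided) on log2(FPKM + 0.5), knockout over control, with Benjamini-Hochberg adjustment over all of them at 0.05. Fold changes on that scale understate changes of low genes, and the SE came from genes of like level, not from the gene's own libraries. A count test was not the main one because the unit is FPKM. The script was tested on simulated data with a small fixed spread between replicates, which checks the code and not what could be detected here. Motif letters were counted in RefSeq promoters. The 32 genes, the lists, tests and alternatives were chosen with earlier results of these data known. Genes named by rule are all 32, IGF2BP3, the fixed markers and the 2 of highest mean per further list. Alternatives were 2 other pseudocounts, filters, TPM and quantile scaling, no trend, the replicate block, limma-voom, thinned reads and leaving out each library. Python 3.11.15, numpy 2.4.6, pandas 2.3.3, scipy 1.17.1 and matplotlib 3.10.9 were used.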

Additional observations from a re-analysis of the deposited data

How the results depend on the processing

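No gene of the 32 and no gene of the further lists passed in any alternative; at an unadjusted p under 0.05 there were 0 to 3 of the 31, with 3 without knockout 2 (9.68%, beside 8.41% of all genes). Leaving out control 1, control 2, knockout 1 or knockout 2 gave 0 calls among all genes, against 10 with all libraries, and so did limma without trend (0, with 415 at an unadjusted p under 0.05), while an adjusted p of 0.1 gave 18. In the fits without a library, the lone library is taken to vary as much as those of the other group. With the replicate number as a block, 14 genes were called, 0 of them among the 32. Libraries with the same number did not deviate together over all genes (correlation −0.00401 across genes), and the labels give the number no meaning. The median log2 fold change of the 31 genes was 0.0419 with limma-voom, which also moved the median of all genes (0.0445 against −0.0816), 0.0855 with thinned reads, and −0.14 to 0.48 with a library left out. The log2 ratio of the sums was −0.0845 after quantile normalization, −0.0485 with thinned reads and −0.0279 to −0.00565 with a library left out. Pseudocount, filter and voom do not bear on it. The sign turned for CCNA2 with limma-voom (−0.27) and for CDC25A after quantile normalization (−0.34), and the cause was not tested. It kept in the other 306 combinations of a gene and an alternative with all 4 libraries. Limma without trend, the replicate block and the other filters return the same coefficient as the main fit. In those alternatives the sign could not turn, so they do not bear on it. With a library left out the sign turned for 17 genes, whose log2 fold changes ran as follows. The range was −0.48 to 0.17 for ANLN, −6.20 to 0.47 for AURKA, −3.09 to 1.00 for BUB1B, −1.69 to 2.01 for CCNA2, −0.21 to 0.70 for CCNB1, −0.30 to 1.59 for CCNB2. The range was −1.13 to 1.89 for CDC25A, −2.06 to 0.93 for CENPA, −0.49 to 4.93 for CENPE, −0.41 to 0.22 for CENPF, −0.20 to 4.96 for HMMR, −1.13 to 0.063 for MKI67. The range was −0.048 to 0.57 for NDC80, −0.35 to 0.076 for PRC1, −1.16 to 0.61 for TOP2A, −1.60 to 3.18 for TTK, −2.23 to 5.79 for UBE2C. It kept its sign for the other 14, whose size moved too. For AURKB, BIRC5, BUB1, KIF11 and KIF2C the groups do not overlap, so their log2 fold change could not turn in sign. It ran −0.66 to −0.19 for AURKB, 0.78 to 3.52 for BIRC5, 0.45 to 0.85 for BUB1, 0.05 to 0.60 for CDC20, −0.46 to −0.017 for CDC25B, 0.048 to 5.07 for CDK1, 1.27 to 1.64 for KIF11. It ran 0.0048 to 1.33 for KIF14, −3.47 to −0.022 for KIF20A, 0.11 to 3.41 for KIF23, 0.17 to 1.04 for KIF2C, −5.29 to −0.028 for NUF2, −3.13 to −0.16 for PLK1, −0.25 to −0.042 for TPX2. IGF2BP3 ran from −5.23 to −2.55.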

Other observations

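Of the further mitotic genes, 5 of 127 had an unadjusted p under 0.05 in limma, 3.94% beside 3.91% of all genes, so the count is at the background. They are named here after their values were seen, as values only. PTTG1, which encodes securin, the inhibitor of separase, had 105 and 129 FPKM in knockout 1 and 2, against 0 and 59.9 FPKM in control 1 and 2. Its log2 fold change of 4.41 ± 1.25 (SE) did not pass (adjusted p = 0.181 in limma), and its control 1 value was 0 although control 2 was not. FBXO5, which encodes EMI1, an inhibitor of the anaphase-promoting complex, had 24.1 and 36.1 FPKM in knockout 1 and 2, against 0 and 0 FPKM in control 1 and 2, so it was listed at 0 in both controls. KIF22, a chromosome-arm kinesin, had 75.2 and 60.8 FPKM in knockout 1 and 2, against 2.95 and 47.4 FPKM in control 1 and 2, low in control 1 alone. CDCA5, which encodes sororin of the cohesin complex, had 0.476 and 46.4 FPKM in knockout 1 and 2, against 152 and 28.7 FPKM in control 1 and 2, and CHMP4B, with 48.6 and 349 FPKM in knockout 1 and 2, against 380.2 and 302 FPKM in control 1 and 2, was low in knockout 1 alone. The adjusted p was 0.955 in limma for each of FBXO5, KIF22, CDCA5 and CHMP4B.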
